A study of Mus musculus with 12 samples.

Results

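The last day before E17.5 in wild-type mouse footpad skin was examined with 4 arrays, 2 labelled E17.5 wild type and 2 labelled E16.5 wild type, out of 12 arrays in the series. They were taken by their labels, and all 42006 non-control probes of the array were used. The series also holds footpads with a skin-specific knockout of beta-catenin, and adds E15.5 for either genotype, which makes 6 groups of 2 arrays. Every footpad RNA is labelled as C57BL/6 and was hybridised in Cy3 against 1 common Cy5 reference, a universal mouse pool from cultured cell lines mixed with RNA of 129ES cells, mouse embryonic stem cells. The wild-type groups carry no named allele or treatment, and the labels name neither the driver of the skin-specific deletion in the knockout nor whether a sample pooled several embryos. The labels do not state whether replicates are separate embryos; p-values therefore measure the spread between these samples alone, which may be technical.

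Footpads are the volar skin in which mice form their eccrine sweat glands. Gland germs form as epidermal placodes that grow down into the dermis, a process steered by Wnt, ectodysplasin and hedgehog signalling, and the same epidermis stratifies and cornifies before birth. A footpad sample holds epidermis, gland germs, dermis, vessels, nerve and other cells together, and in such a bulk sample fewer cells of a type and less RNA per cell cannot be told apart.

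The deposited array files identify each probe by a code and a sequence of 60 bases and pair none with a gene. Probes are therefore named by code, and by the neighbouring gene only for 111 probes whose full sequence matched 1 RefSeq gene start or miRNA hairpin. The defining markers of epidermis and of other cell types were not checked for this reason, and the tissue stands as labelled.

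The probes below carry the largest changes between the stages, and their sequences are given so that they can be recognised without a gene name. The first 4 rose most and the last 2 belong to the 4 that fell most; a pair of fallers that hold a polyadenylation hexamer is left out here. No part is singled out, so all letters are in lower case, 5′ to 3′.
Z00037703-1: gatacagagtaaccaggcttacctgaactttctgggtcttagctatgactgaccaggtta
Z00052357-1: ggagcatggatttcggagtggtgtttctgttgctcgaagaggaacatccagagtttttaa
Z00028496-1: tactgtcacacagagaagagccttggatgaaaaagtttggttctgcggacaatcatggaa
Z00028697-1: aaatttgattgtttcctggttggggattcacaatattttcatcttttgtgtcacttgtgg
Z00047905-1: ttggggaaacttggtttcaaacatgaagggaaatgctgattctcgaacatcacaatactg
Z00040631-1: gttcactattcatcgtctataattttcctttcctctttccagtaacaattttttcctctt

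Between E16.5 and E17.5, 1461 of 42004 probes tested changed in wild-type footpads (3.48%; limma, Benjamini-Hochberg adjusted p under 0.05). Of these, 760 were higher at E17.5 (1.81%) and 701 were lower (1.67%). All values are log2 ratios of footpad over reference, and the step is the E17.5 mean minus the E16.5 mean. Most steps were small: the median fold was 1.79 among probes that rose and 1.70 among those that fell, and the smallest fold called was 1.14. A change of at least 4-fold was reached by 49 risers and 78 fallers. For all 1461, both E17.5 arrays lay on one side of both E16.5 arrays. The Cy3 signal was well above background on both arrays of the higher group for 548 risers and 593 fallers, 1141 in all. The split between directions depended on scaling: it was 1389 higher and 757 lower after normexp and loess, 510 and 900 after normexp and median centring, and 3323 and 1761 with Cy3 alone.

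The E16.5 arrays lie on 1 slide and the E17.5 arrays on another; stage and slide cannot be told apart. The spread behind the test was pooled over all 12 arrays. A group that read exactly 0 on both arrays, as E15.5 did for Z00028496-1 in both genotypes, adds no spread. For such dim probes the adjusted p rests on a spread that can be too small. With only the 4 arrays compared, limma called 0 probes, although 8609 had an unadjusted p under 0.05, and the smallest adjusted p was 0.084. Leaving out E17.5 replicate 1 or 2 left 450 or 319 calls, of which 290 and 231 were calls of the full comparison in the same direction. Without E16.5 replicate 1 there were 921 calls, 486 of them shared.

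**Figure D1:**
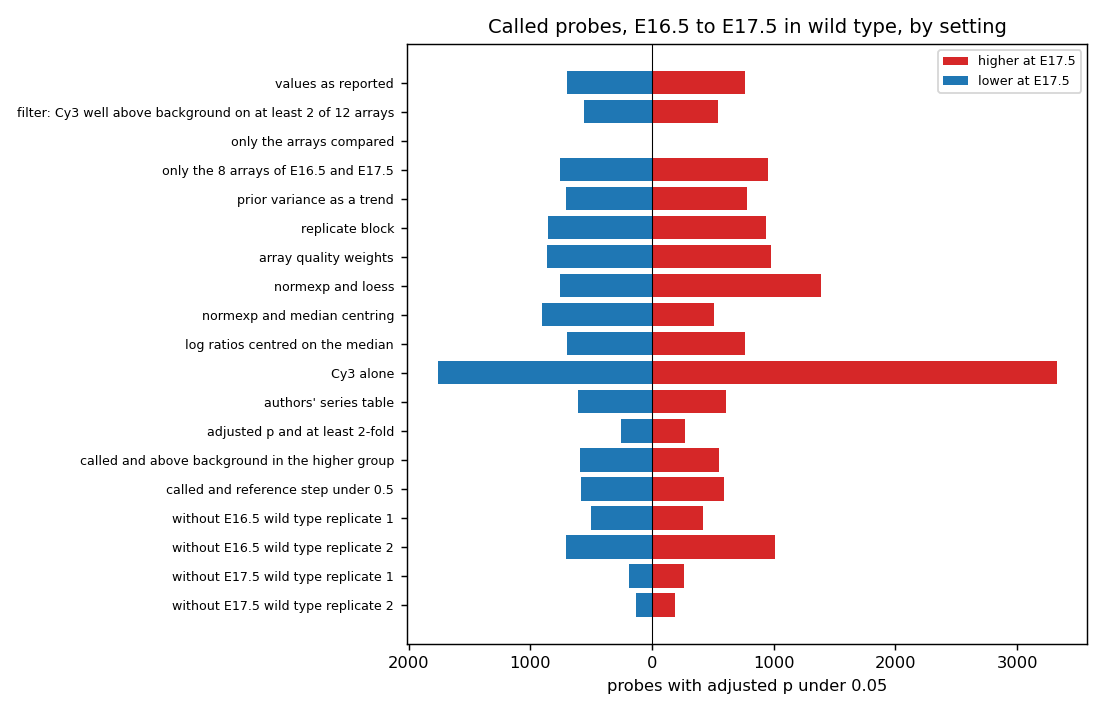
Number of probes with adjusted p under 0.05 (horizontal axis) that were higher (red, to the right) or lower (blue, to the left) at E17.5 than at E16.5 in wild type, for each setting of the analysis. The reported values give 760 and 701 probes, Cy3 alone gives the longest bars with 3323 and 1761, and the fit on the 4 arrays alone gives none.

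The 4 arrays were alike in quality within a stage and differed between stages. Cy3 was well above background for 69.2% and 69.6% of probes on the E16.5 arrays and for 63.7% and 63.0% on the E17.5 arrays. The reference channel differed in the same sense, with 80.3% and 77.3% at E16.5 and 72.2% and 71.7% at E17.5. A ratio of exactly 0 was read for 9.35% to 15.3% of probes on the 4 arrays. For a probe not above background it is not read as a footpad level equal to the reference. Over the 25888 probes above background in Cy3 on all 4 arrays, the ratios correlated at 0.987 between both E16.5 arrays and 0.992 between both E17.5 arrays, against 0.971 to 0.978 between arrays of different stages. These correlations are across probes, which are not independent replicates. The SD of the difference between the 2 arrays of a stage was 0.30 at E16.5 and 0.23 at E17.5, beside an SD of 0.36 for the step over the same probes.

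The common reference was the same RNA on every array, so a change in its signal is not a change in the reference RNA. Such a change can go with slide, hybridisation or the footpad Cy3 signal of the same spot, and these cannot be told apart. Of 42004 probes, 184 (0.438%) differed in the Cy5 signal between the E16.5 and E17.5 wild-type arrays, 43 higher and 141 lower, and 47 of these were also called in the footpad ratio. The split of the reference calls turned to 72 higher and 59 lower after normexp and quantile scaling, and to 3401 and 790 with only the arrays compared. Over the probes above background on all 4 arrays the SD of the reference change was 0.22, and it correlated at -0.02 with the footpad step. Dim probes differed from the others here. The 212 risers whose Cy3 signal was not above background on both E17.5 arrays had a median reference change of -0.69 beside a median step of 1.05, whereas the 548 brighter risers had a median reference change of 0.03. In 200 called probes the reference moved the opposite way by at least 0.5 of the step, and 171 of these were dim and 29 were not. Cy3 alone gave the same direction for 1438 of the 1461 called probes and the opposite for 23. After normexp and loess 95 of the 1461 turned direction, and after normexp and median centring 121. The probes with the largest called reference changes were Z00071194-1 (4.23) and Z00071146-1 (3.01) upward and Z00052819-1 (-6.27) and Z00076300-1 (-3.73) downward, and the footpad ratio of none of these 4 was called. With Cy3 alone their steps were 5.65, 3.89, -7.21 and -7.34 in this order, the same way as the reference. The part of slide in the stage step was not tested beyond these values.

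**Figure D2:**
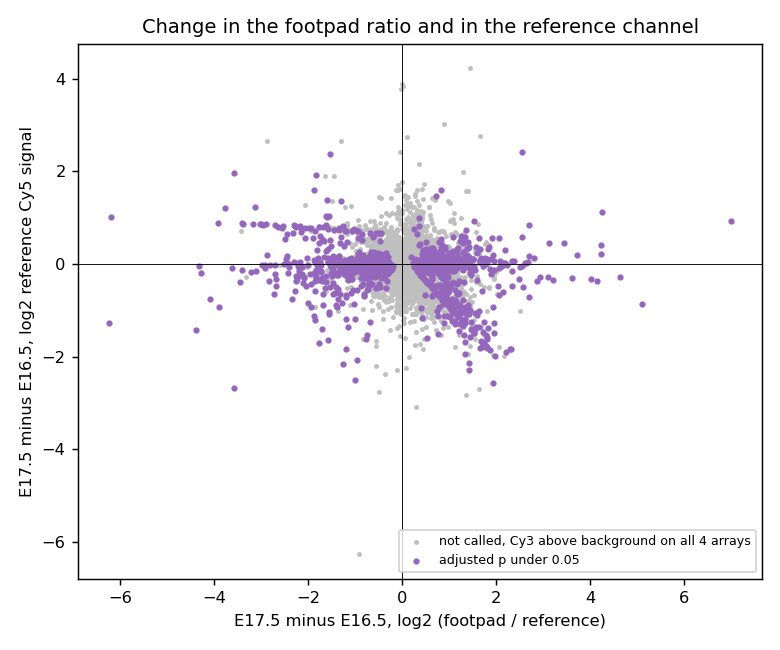
Each point is a probe; the horizontal axis is the E17.5 minus E16.5 difference in log2 footpad over reference and the vertical axis the same difference in the log2 Cy5 reference signal, in wild type. Called probes (purple) lie mostly near 0 on the vertical axis, with an arm of risers below it that holds dim probes whose reference signal fell.

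Most of the 12 largest rises started from a signal not well above background. Among risers above background on both E17.5 arrays, which the choice of probes required, 8 of these 12 were above background on neither E16.5 array, 1 on 1 of them and 3 on both, and only 1 was above background on both E15.5 arrays. Their steps ran from 3.21 to 7.004 with adjusted p of at most 0.036. The knockout step had the same direction for 12 of 12 and was called for 11. Among all wild-type risers 80.8% were called higher in the knockout, and among all probes 6.67%. The knockout arrays lie on the same slides, so this count does not separate stage from slide.

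Z00037703-1 showed the largest rise of the set. Its log2 ratios were -2.21 and -1.90 at E16.5 and 5.12 and 4.78 at E17.5. It stood well below the reference on both E16.5 arrays and well above it on both E17.5 arrays. Because it was not above background at E16.5, the change is given as at least 35.8-fold (adjusted p = 0.00075). Such bounds, here and below, are on the Cy3 signal under a single scaling. The adjusted p beside them tests the step of the ratio. The reference itself was 0.93 higher at E17.5 (adjusted p = 0.016). The E15.5 arrays gave -3.88 and -3.11, lower still, and the knockout step was 6.12. The call held in all 13 other settings in which single probes were followed, apart from the fit on 4 arrays. Its ratio step was 4.995 after normexp and loess and 4.20 after normexp and median centring, both smaller changes than that bound.

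Z00028697-1 was above background on every wild-type array. Its ratios were 5.92 and 6.48 at E16.5 and 10.40 and 10.51 at E17.5, so a probe already far above the reference rose 19.1-fold (step 4.26 ± 0.54 SE, adjusted p = 0.015). At E15.5 it read 5.69 and 3.97. In the knockout it rose from a mean of 2.80 to 10.06, a step of 7.26; the difference between genotypes of -3.00 had an adjusted p of 0.39. The reference signal was 1.12 higher at E17.5 (adjusted p = 0.014), which lowers the ratio, and leaving out E16.5 replicate 1 or either E17.5 array ended the call, with adjusted p of 0.056, 0.071 and 0.084.

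Z00028496-1 read 0 on both E15.5 arrays. It read 0.79 and 2.24 at E16.5 and 5.83 and 6.44 at E17.5, at least 2.87-fold higher (adjusted p = 0.0089), and the knockout step was 5.84. Without E17.5 replicate 2 its adjusted p was 0.057. Z00052357-1 read -0.12 and -0.08 at E16.5 and 5.29 and 4.73 at E17.5, at least 1.87-fold higher (adjusted p = 0.0071), with a knockout step of 5.03. Both probes thus went from a signal not well above background to a clear one on both arrays of the later stage.

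The next 8 risers in the same order were named after their values were seen. Z00031224-1 was above background at both stages and went from 0.78 and 0.80 to 5.32 and 4.29, a 16.1-fold rise (adjusted p = 0.011), while its knockout step was 4.09. Z00074391-1, also above background at both stages, went from -1.88 and -2.33 to 1.49 and 1.17, a 10.8-fold rise (adjusted p = 0.036). It lost the call without any 1 of the 4 arrays, with adjusted p from 0.093 to 0.15, and its knockout step of 1.83 was the one not called (adjusted p = 0.10). Z00024021-1 had an uneven course over the 3 days: 2.05 and 1.88 at E15.5, 0.08 and -0.19 at E16.5, and 3.34 and 3.77 at E17.5, at least 1.36-fold higher than at E16.5 (adjusted p = 0.0013), with Cy3 above background at E17.5 only. Z00038785-1, Z00076967-1, Z00022985-1 and Z00042765-1 were above background on neither E16.5 array and were at least 1.61-, 1.46-, 1.48- and 1.33-fold higher at E17.5. Z00024962-1 was above background on 1 of the 2 E16.5 arrays and had a step of 4.23. None of these 5 was above background on both E15.5 arrays. Of these 8, Z00024962-1, Z00076967-1 and Z00042765-1 lost the call without either E17.5 array, and Z00042765-1 also without E16.5 replicate 1.

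The size of these rises depended on how background was treated. After normexp with an offset of 50 and loess, which draws dim ratios toward 0, the same 12 probes had steps from 0.57 to 5.08, and for 10 of them the reported step was over 1.5 times that value. Direction was the same for all 12. Of the 12, 6 kept their call in every setting followed for single probes apart from the fit on 4 arrays.

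**Figure D3:**
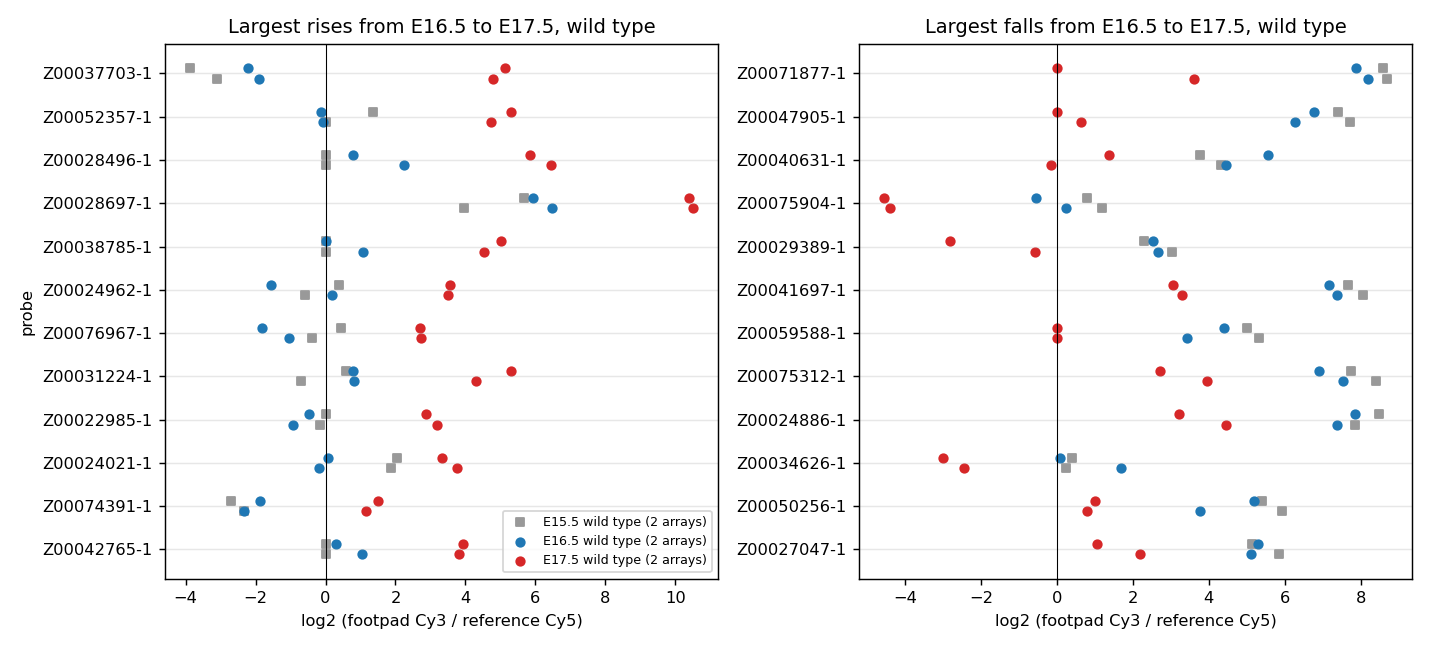
Log2 footpad over reference on each wild-type array for the 12 probes with the largest rise (left) and the 12 with the largest fall (right); each point is 1 array, grey squares E15.5, blue circles E16.5 and red circles E17.5, offset vertically by replicate. Red and blue points never overlap within a probe, which the choice of probes required, and for the fallers the grey points lie near the blue ones.

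The 12 largest falls were chosen with Cy3 above background on both E16.5 arrays, and all 12 were above background on both E15.5 arrays too. At E17.5, 5 were still above background on both arrays, 3 on 1 and 4 on neither. The knockout step was called in the same direction for 12 of 12. Among all wild-type fallers 77.5% were called lower in the knockout, and among all probes 6.39%. This count does not separate stage from slide either.

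Z00071877-1 had ratios of 7.87 and 8.19 at E16.5, after 8.58 and 8.69 at E15.5, and 0 and 3.61 at E17.5. Both later arrays lay far below both earlier ones but differed from each other by more than any other leading probe, and only 1 of them was above background. The size of the fall thus rests partly on a ratio of exactly 0. The step was -6.23 ± 0.99 SE (adjusted p = 0.028), and the call ended without E16.5 replicate 1 (adjusted p = 0.087) or replicate 2 (0.070). The reference was 1.27 lower at E17.5, a change not called (adjusted p = 0.21).

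Z00047905-1 fell from 6.76 and 6.27 at E16.5 to 0 and 0.65 at E17.5, with E15.5 values of 7.40 and 7.72. It was above background on neither E17.5 array, so the fall is given as at least 2.22-fold (adjusted p = 0.00094). The call held in all 14 settings followed for single probes other than the fit on 4 arrays. Z00040631-1 went from 5.57 and 4.44 to 1.38 and -0.16, at least 4.49-fold lower (adjusted p = 0.024); without E16.5 replicate 1 or E17.5 replicate 2 its adjusted p was 0.089 or 0.11. Z00075904-1 started near the reference, at -0.54 and 0.24, and fell to -4.55 and -4.39, at least 3.22-fold lower (adjusted p = 0.0047). It kept its call in the same 14 settings, other than the fit on 4 arrays (adjusted p = 0.099). A probe level with the reference and a probe far above it thus both lost their signal by E17.5.

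The next 8 fallers were again named after their values were seen. Z00041697-1 had the smallest error among them: 7.17 and 7.36 at E16.5 against 3.07 and 3.29 at E17.5, a 16.99-fold fall (step -4.09 ± 0.19 SE, adjusted p = 0.00094). It was above background on all 4 arrays, and its step was -4.48 after normexp and loess. Z00024886-1, at 7.85 and 7.37 and then 3.22 and 4.46, fell 13.6-fold (adjusted p = 0.013) while its reference signal was 1.21 higher, a change not called (adjusted p = 0.14). After normexp and loess its step was -1.77. Z00034626-1, near the reference at E16.5 with 0.09 and 1.69, fell to -3.00 and -2.44 (adjusted p = 0.026), and lost the call without either E17.5 array. Z00027047-1 fell from 5.28 and 5.10 to 1.05 and 2.19 (adjusted p = 0.015), but its reference signal fell by 2.67 at the same time (adjusted p = 0.011), the only one of the 12 with a called reference change, and the call was lost without E16.5 replicate 1 or E17.5 replicate 1. Z00059588-1 read 0 on both E17.5 arrays, and its step of -3.92 was -0.31 after normexp and loess, where it was no longer called (adjusted p = 0.23). Z00050256-1 lost its call likewise, from -3.58 to -0.59 (adjusted p = 0.069), and Z00029389-1 differed between its E17.5 arrays, at -2.80 and -0.58, and lost the call without either E16.5 array. Z00075312-1 is described with its partner below.

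Probes that share sequence gave a check of these values within the same arrays. The array holds 1254 groups of probes with at least 20 bases in a row in common, 2791 probes in all. In the 670 pairs with both probes above background on all 4 arrays, the steps of both probes differed by a median of 0.04, and 98.1% of pairs were within 0.5 of each other. In 47 pairs 1 or both probes were called, 28 of them both, and in all 47 both steps had the same sign. In 34 groups at least 2 probes were called, 14 upward and 20 downward, and no group held calls in both directions. Such pairs measure the same RNA samples on the same slides, so they bear on the precision of a probe and not on differences between embryos.

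**Figure D4:**
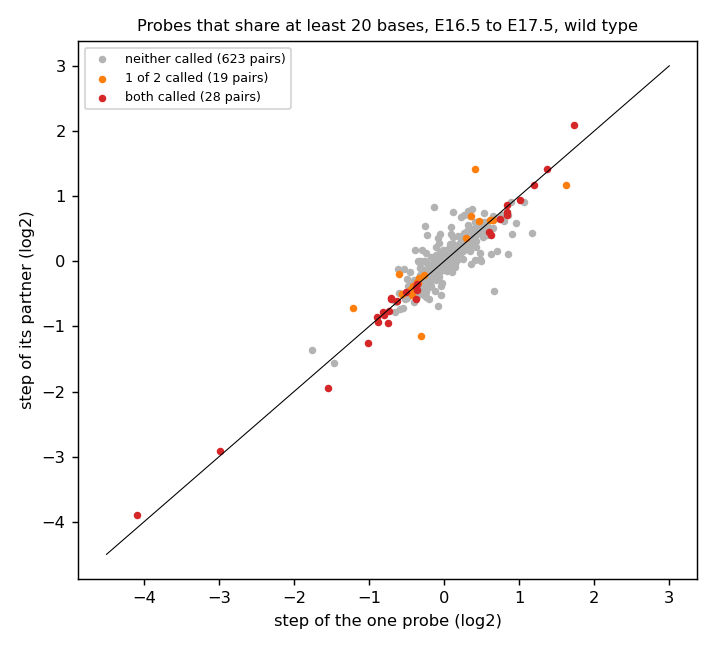
Each point is a pair of probes that share at least 20 bases in a row and are above background on all 4 arrays; the axes give the E17.5 minus E16.5 step (log2) of either probe in wild type, and the line marks equal steps. The 28 pairs with both probes called (red) follow the line from -4 to 2.

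The largest falling pair was Z00041697-1 with Z00075312-1, which overlap by 35 bases, in capitals below for the probe that holds no polyadenylation hexamer.
Z00075312-1: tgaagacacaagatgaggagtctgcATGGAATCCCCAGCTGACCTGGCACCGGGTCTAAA
Its ratios of 6.90 and 7.53 at E16.5 and 2.71 and 3.94 at E17.5 gave a 14.8-fold fall (adjusted p = 0.0098) beside the 16.99-fold fall of its partner. Both read between 7.67 and 8.39 at E15.5, so both probes stood high over the reference on 2 days and dropped on the third, in the knockout as well, where the steps were -3.56 and -3.74.

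A second falling pair, Z00075322-1 and Z00004889-1, shares 32 bases, printed in capitals for the former.
Z00075322-1: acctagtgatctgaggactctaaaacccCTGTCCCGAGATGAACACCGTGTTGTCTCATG
The former went from 1.02 and 2.38 to -1.40 and -1.03 (7.56-fold lower, adjusted p = 0.018) and the latter from 0.98 and 2.52 to -1.63 and -0.86 (7.95-fold lower, adjusted p = 0.030). Both probes show the same gap between E16.5 replicates 1 and 2, with replicate 2 the higher. Both lost the call without either E17.5 array.

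In 2 further falling pairs the reference fell with the footpad ratio. Z00060342-1 and Z00024325-1 are the same sequence shifted by 1 base and share 59 bases.
Z00060342-1: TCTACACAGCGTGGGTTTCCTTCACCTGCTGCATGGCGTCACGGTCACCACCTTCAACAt
Z00024325-1: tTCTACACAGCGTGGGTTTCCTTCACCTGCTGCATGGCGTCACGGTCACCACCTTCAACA
Their steps were -1.95 and -1.55 (adjusted p = 0.014 and 0.037) with reference changes of -0.92 and -1.08, both called (adjusted p = 0.014 and 0.010). Z00060342-1 lost the call without E16.5 replicate 1 or either E17.5 array and Z00024325-1 without any 1 of the 4. Z00073972-1 and Z00030723-1 overlap by 32 bases.
Z00030723-1: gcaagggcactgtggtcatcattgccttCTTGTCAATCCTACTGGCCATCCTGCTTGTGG
Z00073972-1: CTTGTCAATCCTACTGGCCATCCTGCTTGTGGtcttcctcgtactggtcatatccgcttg
Their steps were -1.25 for Z00073972-1 and -1.01 for Z00030723-1 (adjusted p = 0.018 and 0.048), while the reference fell by 2.16 and 2.49 (adjusted p = 0.038 and 0.031). Z00030723-1 lost its call without either E16.5 array or E17.5 replicate 1, with adjusted p from 0.052 to 0.14, and with array weights (0.064) or the 8 arrays of E16.5 and E17.5 (0.082). In this last pair the reference, the same RNA throughout, changed by more than the footpad ratio. With Cy3 alone the steps were -3.43 for Z00073972-1 and -3.52 for Z00030723-1, and the part of the reference in the result was not tested.

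Among risers, Z00077076-1 and Z00059643-1 share 39 bases and gave the largest step of a pair above background on all 4 arrays.
Z00059643-1: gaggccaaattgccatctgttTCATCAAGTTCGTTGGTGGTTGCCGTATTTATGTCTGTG
Z00077076-1: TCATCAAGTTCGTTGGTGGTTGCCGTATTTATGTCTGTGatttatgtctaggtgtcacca
Z00077076-1 went from -2.50 and -2.57 to -0.42 and -0.45 (4.28-fold, adjusted p = 0.0062) and Z00059643-1 from -2.12 and -2.20 to -0.39 and -0.46 (3.33-fold, adjusted p = 0.018). The reference changed by 0.038 for Z00059643-1 and -0.050 for Z00077076-1, and the former lost its call without E16.5 replicate 1 or either E17.5 array. In the knockout the steps were smaller, 1.06 and 0.63, but the difference between genotypes was not called (adjusted p = 0.44 and 0.54).

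Z00074548-1, Z00022747-1 and Z00076845-1 overlap by at least 56 bases and rose together by 1.45, 1.59 and 1.68 (adjusted p = 0.0021, 0.0021 and 0.0071). Z00022747-1 and Z00076845-1 differ at 1 base, C60A, counted from the 5′ end of Z00022747-1. At E16.5 all 3 lay between -0.62 and -0.38 and at E17.5 between 0.89 and 1.34. Each kept its call in every setting followed for single probes apart from the fit on 4 arrays.

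Z00056460-1 and Z00074555-1 overlap by 24 bases and rose by 1.37 and 1.42.
Z00056460-1: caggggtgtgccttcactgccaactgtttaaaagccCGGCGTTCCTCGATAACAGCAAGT
Z00074555-1: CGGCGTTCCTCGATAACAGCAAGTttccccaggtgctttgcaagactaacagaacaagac
Their adjusted p of 0.043 and 0.026 was lost without any 1 of the 4 arrays. Z00031306-1 and Z00022757-1, with 44 bases in common, rose by 1.17 and 1.19 (adjusted p = 0.014 and 0.0065), from ratios of 2.09 to 2.71 at E16.5 to 3.39 to 3.77 at E17.5.
Z00031306-1: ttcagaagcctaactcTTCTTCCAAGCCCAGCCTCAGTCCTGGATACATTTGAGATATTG
Z00022757-1: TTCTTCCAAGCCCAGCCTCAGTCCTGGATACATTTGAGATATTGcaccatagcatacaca
Z00031306-1 lost its call without E17.5 replicate 1 (adjusted p = 0.073) or replicate 2 (0.053). Both pairs had a reference change of 0.32 to 0.37, not called, and rose more in the knockout, by 1.89 to 2.18, with no called difference between genotypes.

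The pair among the 12 leading risers, Z00052357-1 and Z00076967-1, is aligned over its full length and differs at 4 positions, in capitals below: C14A, G36A, C45G and A46G, counted from the 5′ end, with the base of Z00052357-1 first.
Z00052357-1: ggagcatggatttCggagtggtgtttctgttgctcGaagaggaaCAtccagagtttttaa
Z00076967-1: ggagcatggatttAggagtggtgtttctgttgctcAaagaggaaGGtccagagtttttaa
Probes this alike can bind each other's target, so how much of either value belongs to which transcript is uncertain. Z00076967-1 went from -1.83 and -1.04 at E16.5 to 2.69 and 2.73 at E17.5 (at least 1.46-fold higher, adjusted p = 0.012). The knockout step was 2.21 for Z00076967-1 and 5.03 for Z00052357-1. A like pair among fallers, Z00024302-1 and Z00046776-1, differs at T15C, C16T and T17C. Z00024302-1 read 3.61 and 3.22 at E16.5 and 0 on both E17.5 arrays, and Z00046776-1 went from 1.87 and 2.03 to -0.14 and -0.53 (adjusted p = 0.018 and 0.012). Both were above background at E16.5 and on neither E17.5 array, and after normexp and median centring neither was called (adjusted p = 0.37 and 0.35).

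Position relative to a gene was known only for probes that matched a RefSeq window from 250 bases before a gene's start, or a hairpin. Of these 111 probes, 70 lay wholly before the annotated start, 40 crossed it and 1 lay in a hairpin, and 74 were above background on all 4 arrays. The step was called for 5, 2 upward and 3 downward, 4.50% beside 3.48% of all probes, and the median step was -0.08 beside 0 for all probes. The share is near the background, and a probe before a start may measure another transcript than the gene named. The sequences are given with GRCm38.p6 coordinates, and capitals mark bases from the annotated start on.
S100a7a: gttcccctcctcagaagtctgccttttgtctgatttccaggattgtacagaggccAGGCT
Tor1aip2: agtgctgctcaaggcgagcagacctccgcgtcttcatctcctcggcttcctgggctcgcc
Tmem95: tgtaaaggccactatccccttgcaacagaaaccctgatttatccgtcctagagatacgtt

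S100a7a encodes a small calcium-binding S100 protein of the psoriasin group, expressed in epidermis. Its probe Z00077693-1 (chr3:90654247-90654306, plus strand) reaches from position -55 to position 5 relative to the annotated start. It read 1.54 and 1.40 at E16.5 and 0.89 and 0.96 at E17.5, a 1.45-fold fall (step -0.54 ± 0.08 SE, adjusted p = 0.020). Groups did not overlap, which the choice of probes required. The reference changed by -0.01, the knockout step was -0.59, and the call was lost without E16.5 replicate 1 or either E17.5 array.

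Tor1aip2 encodes a membrane protein that binds and activates torsins. Its probe Z00073967-1 (chr1:156035836-156035895, plus strand) lies before the start, at -200 to -141, and rose from 3.56 and 3.65 to 4.33 and 4.32 (1.65-fold, adjusted p = 0.022). Both arrays of a stage were nearly equal, and the knockout step of 0.94 was also called (adjusted p = 0.0038). Without E16.5 replicate 1 or either E17.5 array its adjusted p was 0.082 to 0.11.

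Ntng1 encodes netrin-G1, a membrane-anchored axon guidance protein. Its probe Z00041441-1 (chr3:110143430-110143489, minus strand) spans positions -17 to 43 and stood high over the reference, at 6.05 and 5.98 at E16.5, after 6.74 and 6.98 at E15.5. It fell to 5.26 and 5.40 (1.61-fold, adjusted p = 0.026), with a knockout step of -0.88. The level remained far above the reference at E17.5, so this was a small decline of a strong signal, and the call was lost without any 1 of the 4 arrays.

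Tmem95 encodes a sperm membrane protein needed for fertilisation. Its probe Z00025240-1 (chr11:69878199-69878258, minus strand) lies wholly before the start, at -203 to -144, and rose from 2.37 and 2.52 to 3.38 and 3.66 (2.11-fold, adjusted p = 0.033). It had read 1.42 and 1.30 at E15.5, below both later stages. The knockout step of 0.66 was not called (adjusted p = 0.063), the step was 0.66 after normexp and loess, and leaving out any 1 of the 4 arrays ended the call. The fifth called probe, Z00060294-1 before the predicted gene Gm21936 (chr12:87795362-87795421), read -4.79 and -5.04 at E16.5 and -7.09 and -7.10 at E17.5, where it was not above background (adjusted p = 0.033). Its direction turned after normexp and loess (0.051, adjusted p = 0.89).

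Gene lists had been set out for the cornified envelope, barrier lipids, keratins, the Wnt, ectodysplasin and hedgehog pathways, sweat gland genes and other cell types, and only 2 listed genes had a probe that could be placed. Neither of the 2 was called. Aqp5 encodes the water channel of secretory gland cells; its probe Z00055649-1 (chr15:99590881-99590940, plus strand, -147 to -88 from the start) read 0.59 and -0.34 at E16.5 and 0.39 and -0.06 at E17.5, a step of 0.043 ± 0.57 SE (adjusted p = 1). Its stages overlapped entirely, and the sign turned after normexp and median centring (-0.064). Ltb encodes lymphotoxin beta, a cytokine of the tumour necrosis factor family that acts in skin appendage formation. Its probe Z00067389-1 (chr17:35194278-35194337, plus strand, -229 to -170 from the start) read 0.70 and 0.74 at E16.5 and 0.25 and 0.40 at E17.5, a step of -0.40 ± 0.08 SE (adjusted p = 0.057). The groups did not overlap, and with Cy3 alone the probe was called (adjusted p = 0.049).

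Both genotypes were hybridised on the same slides, so the knockout arrays give the same step in other samples. In the knockout 2802 probes rose (6.67%) and 2683 fell (6.39%). Of the wild-type risers 614 were called higher in the knockout too, 80.8% of the wild-type and 21.9% of the knockout list, and 11 were called lower. Of the wild-type fallers 543 were called lower in the knockout, 77.5% and 20.2% of the lists, and 3 were called higher. Both steps were tested with the same pooled spread of each probe, so the lists of calls are not independent. The median knockout step was 0.86 for wild-type risers and -0.72 for wild-type fallers, beside wild-type medians of 0.84 and -0.77. Over the 25718 probes above background on all 8 arrays, the steps correlated at 0.82 across probes, with an SD of 0.35 in wild type and 0.48 in the knockout; probes are not independent and the arrays share slides.

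The difference between both steps was tested directly, where any change common to a slide cancels. It was called for 43 of 42003 probes (0.102%), 27 with the larger value in wild type and 16 with the smaller. This split turned to 2 and 23 after normexp and loess, 1 and 5 after normexp and median centring, and 1 and 3 with Cy3 alone. Of the 43, 36 were above background on none of the 8 arrays and 15 had a ratio of exactly 0 on all 4 wild-type arrays, while 5 were above background on all 8. With the filter on dim probes limma called 0 of 30367, with 1435 at an unadjusted p under 0.05. The stage step of wild type and knockout could thus be told apart for few probes, which does not show that the steps were alike.

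Of the 5 probes above background on all 8 arrays, 4 also had a called wild-type step, and their sequences are given for this reason. The fifth, Z00025258-1, had a wild-type step of -0.12 that was not called (adjusted p = 0.19) and a difference of 0.59 (adjusted p = 0.043).
Z00074112-1: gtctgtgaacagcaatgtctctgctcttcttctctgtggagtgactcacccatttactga
Z00009737-1: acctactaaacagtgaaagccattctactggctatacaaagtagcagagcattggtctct
Z00003171-1: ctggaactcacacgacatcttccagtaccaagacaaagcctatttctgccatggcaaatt
Z00074544-1: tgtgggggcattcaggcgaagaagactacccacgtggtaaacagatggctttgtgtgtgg

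Z00074112-1 rose in wild type from -1.56 and -1.59 to -0.61 and -0.50 (2.03-fold, adjusted p = 0.0013) and in the knockout from -2.31 and -2.33 to -0.59 and -0.50. The genotypes met at E17.5 after differing at E16.5, and the rise was smaller in wild type by 0.76 ± 0.08 SE on the log2 scale (adjusted p = 0.046). Z00009737-1 rose from 0.03 and 0.17 to 0.96 and 1.04 in wild type (1.86-fold, adjusted p = 0.0016) and from -0.33 and -0.31 to 1.37 and 1.43 in the knockout, where it began lower and ended higher. Z00074544-1 fell from -0.21 and -0.05 to -0.65 and -0.72 in wild type (1.47-fold, adjusted p = 0.011) and from 0.14 and 0.22 to -1.21 and -1.25 in the knockout. Z00003171-1 fell from -1.78 and -2.03 to -2.38 and -2.56 in wild type (adjusted p = 0.041) and to -3.93 and -4.07 in the knockout. Its wild-type step shrank to -0.086 after normexp and loess (adjusted p = 0.72) and -0.10 after normexp and median centring (0.56), and the call was lost without E16.5 replicate 1 or either E17.5 array. Z00070322-1 fell in wild type from -1.28 and -1.45 to -3.60 and -3.51, where it was not above background, at least 1.12-fold lower. Its wild-type step shrank to -0.15 after normexp and loess (adjusted p = 0.30) and -0.042 after normexp and median centring (0.82), where it was not called. The knockout arrays stayed between -1.61 and -1.16, with 1 of the 2 above background at E17.5.

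**Figure D5:**
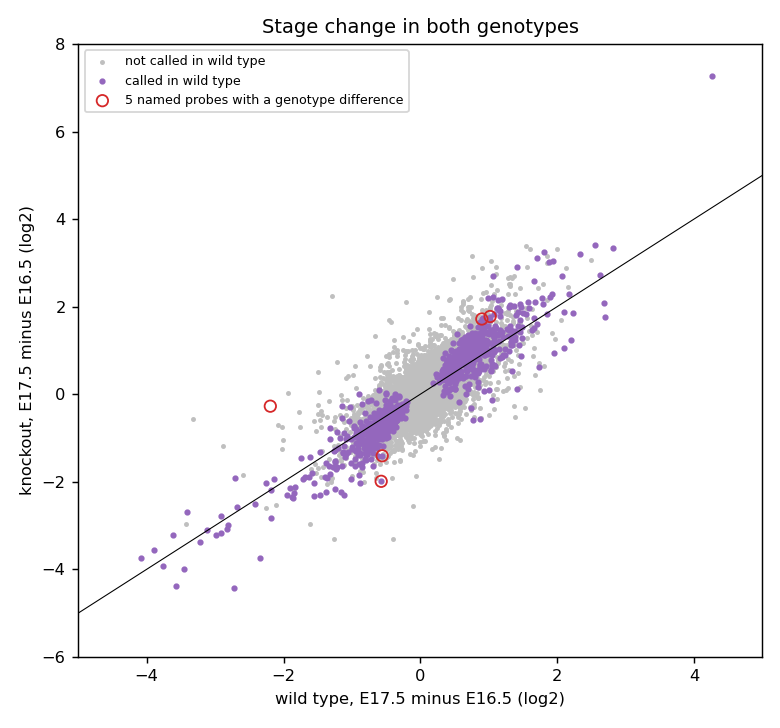
Each point is a probe above background on all 8 arrays of E16.5 and E17.5; the horizontal axis is the E17.5 minus E16.5 step in wild type and the vertical axis the step in the knockout, both log2, with the line of equal steps. Probes called in wild type (purple) follow the line, and red rings mark the 5 named probes with a genotype difference, 1 of which (the ring at -2.19 in wild type) is drawn from its value although its E17.5 wild-type signal was not above background.

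The strong changes were counted over all 3 days for bright probes. The 38 probes that rose at least 4-fold and were above background at E17.5 went through median ratios of 0, 0.16 and 3.42 from the first day to the third. Of them, 22 were above background on neither E15.5 array and 13 on neither E16.5 array, so the median of 0 is not a measured level. The 58 that fell at least 4-fold and were above background at E16.5 had medians of 1.30, 1.93 and -0.59, and 39 of them were above background on both E15.5 arrays. The knockout medians at E16.5 and E17.5 were -0.12 and 2.96 for the first set and 1.83 and -0.29 for the second. The E16.5 and E17.5 wild-type values chose both sets, so their medians are a description.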

How the data were processed

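Per the file headers, spots were quantified in Agilent's Feature Extraction software (9.5.1.1), and the deposited files hold spot intensity values and a log10 ratio of Cy5 over Cy3 per spot. A deposited matrix of the authors, in log10 units, covers 25030 spots, with column medians of 2.56 to 2.58 and an unstated centring; its differences between stages correlated at 0.958 to 0.961 with those of the array files. Ratios were turned to log2 footpad over reference; 1417 control spots and 5 to 14 outlier spots per array were left out, and spots of a probe averaged. limma 3.58.1 (R 4.3.3) was fitted to 12 arrays in 6 groups without a filter on dim probes. The reference was tested as log2 Cy5 intensity minus its 75th percentile. Bounds ("at least") compare Cy3 after loess and Aquantile with the lowest signal well above background on each array. They hold for Cy3 under that scaling alone, and a ratio step after another scaling can be smaller. Alternatives changed filter, samples, prior, weights, background, scaling and measure. On simulated data for the step (42004 probes) 44 of 100 changes of 1 and 91 of 100 of 2 on the log2 scale were called, and 12 of 41804 unchanged probes. Changes were planted only in probes above background on all 4 arrays, with independent normal noise and no slide shift. The simulation therefore does not cover changes in dim probes or an effect of slide.

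Named were the 4 probes without a gene that changed most in each direction (adjusted p under 0.05, groups apart, Cy3 above background in the higher group), up to 8 such probes at a gene start, up to 5 per direction with a genotype difference, listed genes, and 2 reference probes per direction; the probes with shared bases were picked by mean step. Members and lists were chosen with earlier results of these data known. Sequences at gene starts are from RefSeq (GRCm38.p6). Precision is limited by 2 arrays in a group.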

Additional observations from a re-analysis of the deposited data

Results flagged for a closer look

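The step differed between wild type and knockout by the test of the difference itself in 43 probes (limma, adjusted p under 0.05). The 5 given here also had a called wild-type step and Cy3 above background on both arrays of the higher wild-type group. The difference, wild type minus knockout, was -1.92 for Z00070322-1 (adjusted p = 0.046), -0.82 for Z00009737-1 (0.034), -0.76 for Z00074112-1 (0.046), 1.42 for Z00003171-1 (0.045) and 0.85 for Z00074544-1 (0.045). For Z00009737-1 and Z00074112-1 both genotypes rose and the knockout rose more; for Z00003171-1 and Z00074544-1 both fell and the knockout fell more. None of the 5 was called once dim probes were left out of the fit, with adjusted p from 0.23 to 0.41, nor with Cy3 alone, from 0.12 to 0.29. After normexp and loess the difference shrank to -0.28 for Z00070322-1 and 0.50 for Z00003171-1. With the replicate block none was called either, with adjusted p from 0.097 to 0.21. Each lost its call without E17.5 wild-type replicate 1, without E17.5 wild-type replicate 2 and without E17.5 knockout replicate 2; without E17.5 knockout replicate 1 Z00074544-1 lost it (0.052) and the other 4 did not.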

How the results depend on the processing

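The 1461 calls of the wild-type step became 0 with only the 4 arrays compared, 5084 with Cy3 alone, 524 with a 2-fold minimum and 43 after subtracting the knockout change; without 1 array they ranged from 319 to 1718. Of the 43 genotype differences, 0 were called with the filter on dim probes or the replicate block, 3 with only the arrays compared, 66 with a trended prior, 69 with array weights, 25 after normexp and loess, 6 after normexp and median centring, 4 with Cy3 alone, 24 in the authors' table and 5 above background on all 8 arrays; without 1 array they ranged from 34 to 488. With the block 3871 had an unadjusted p under 0.05. The 184 reference calls became 4191 with only the arrays compared, 311 with a trended prior, 316 with array weights, 115 with the replicate block and, added after seeing the data, 119 with the 8 arrays of E16.5 and E17.5; without 1 array they ranged from 139 to 251. Of the 2 listed genes, 1 (Ltb, Z00067389-1) was called with the replicate block (adjusted p = 0.042) and with Cy3 alone (0.049), and 0 without any 1 array. The block ended the calls of Z00030723-1 (0.053) and Z00074391-1 (0.051) and of no other named step. In the other alternatives run these counts stayed within 1.5 times. The count of knockout step calls changed by more than that in 1 alternative. The replicate number as a block gave 1790 step calls, 937 higher. Deviations of same-numbered wild-type samples correlated at 0.28. With 2 numbers, whether such samples share more than a number, for example a position on the slide, was not tested. The other additions made after seeing the data, bright calls alone (1141), calls with a reference change under 0.5 (1170) and the step with 8 arrays (1707), stayed within 1.5 times of the main count.

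Of the 51 called probes named, 19 kept the call in every alternative apart from the 4-array fit, where adjusted p ran from 0.084 to 0.25; 31 lost it without at least 1 array and 7 without any 1. That tally left out the 2-fold minimum, the subtraction of the knockout change and the limits on brightness and reference change, which were run as counts alone. Direction turned for Z00060294-1 after normexp and loess (0.051) and median centring (0.022), and for the uncalled Z00055649-1 with median centring (-0.064) and with 1 array left out (from -0.42 to 0.51). Apart from the smaller numbers of samples or probes tested, the cause was not tested. Listed genes had 1 probe each, so a mean over probes of a gene was not run.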

Other observations

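The shares of probes called in each direction varied with the level on the E15.5 wild-type arrays. Those arrays enter neither side of the step but do enter the pooled spread behind the calls. Of 3402 probes above background and at least 4-fold over the reference at E15.5, 2.47% rose and 3.85% fell between E16.5 and E17.5, beside 1.80% and 1.90% of the 19315 probes within 4-fold of the reference. Of 2160 probes at least 4-fold under the reference, 2.82% rose and 1.16% fell, and their median step was 0.12. The 14501 probes above background on neither E15.5 array gave 1.68% and 0.99%.

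Base composition differed as well. Among probes above background on all 4 arrays, 2.76% of the 7063 with under 40% G and C rose and 1.66% fell, while 0.59% of the 1538 with at least 60% rose and 0.91% fell; the median step was 0.06 in the former and -0.09 in the latter. A polyadenylation hexamer (AATAAA or ATTAAA, on the probe strand) was held by 17.4% of fallers and 9.87% of risers, beside 9.90% of all probes. The share was higher in brighter probes, 11.1% of those above background on all 4 arrays. It was 15.1% of those above background and at least 4-fold over the reference at E15.5. These shares are descriptions of the array's probes, several of which can share a transcript.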
